A study of Danio rerio with 2 samples.

Results

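Genes of the proteasome and of ubiquitin conjugation and removal were read in zebrafish embryos at 24 hours after fertilization. The genes were those whose single symbol in the platform annotation began with psma to psmg and a digit (proteasome subunits, activators and assembly factors), with uba and a digit (activating enzymes), with ube2 (conjugating enzymes) or with usp and a digit (ubiquitin-specific proteases). They numbered 105 of the 8796 genes on the arrays and were covered by 128 probe sets. The first group of embryos had received a morpholino, a synthetic antisense oligomer, against the gene DrC1q-like, and the second a control morpholino with 5 mismatches to it, each at about 5 ng per embryo. Embryos of both groups were kept at the same temperature and were not described as carrying any other allele or agent. How many embryos were pooled for an array is not stated in the labels, and DrC1q-like itself was not analysed here. With 1 array per group there were no replicates, and the groups could not be tested against each other. Here "higher" and "lower" say how the C1q-like morpholino array read relative to the control array.

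Ubiquitin is a small protein that is attached to other proteins in a relay. An activating enzyme (E1) charges it, a conjugating enzyme (E2) carries it, and a ligase (E3) places it on a substrate, often as a chain. Certain chains send the substrate to the proteasome, which consists of a 20S core with proteolytic sites inside its beta rings and a 19S cap that binds, unfolds and feeds in the substrate. Deubiquitinases, of which the Usp proteases are the largest family in vertebrates, trim or remove the chains. Whole embryos were used, and in such bulk RNA fewer cells of a type and less RNA per cell cannot be told apart.

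A signal below 33.3, the median signal of both arrays combined, was raised to that floor before a ratio was taken, and genes with 1 or both signals at or above it were called measured. Of the 105 genes 91 were measured and 14 lay below the floor on both arrays. Of the 91, 85 reached the floor on both arrays, 3 on the C1q-like morpholino array alone and 3 on the control array alone. Of all 8796 genes 5961 were measured, with a median log2 ratio of 0.01. As a yardstick of measurement error, the log2 ratios of the 2 brightest measured probe sets of the same gene differed by a median of 0.36 over 789 genes. This spread comes from 1 pair of RNA samples and says nothing of variation between embryos. Hybridization and scanning of the arrays took place on different days, and day cannot be told apart from group.

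The classes differed in the sign of their medians, and with signals raised to the floor 1 of the 91 ratios reached 2-fold. The 20S core genes were mostly slightly higher, with a median log2 ratio of 0.27 over 15 measured genes, and the 19S cap genes lay close to equality, at 0.0548 over 21. The E2 genes were lower in median, at -0.19 over 25, and the Usp genes were the lowest of these classes, at -0.37 over 19. This Usp median was the value of usp12a, which was below the floor on the C1q-like morpholino array, so its size is a lower bound. The 1 gene at 2-fold was ube2s, which was lower by its brightest probe set. The ratios of 6 further genes are lower bounds, and without a floor usp38 was also at least 2-fold lower and usp16 at least 2-fold higher. With the floor none of the 91 was at least 2-fold higher, where 1.69% of all measured genes were, and 1 was at least 2-fold lower, where 4.09% of all were.

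The alpha rings of the core form its gate. Of 8 alpha genes 7 were measured, and 6 of them had ratios above 1, as did 50.9% of all measured genes. All 7 were in the brightest of 8 equal bins of mean signal. Over all genes of that bin the median log2 ratio was 0.20, and 4 of the 7 alpha genes lay above it. The gene psma5 read 1226.3 with the C1q-like and 820.8 with the control morpholino and was 1.49-fold higher. For psma2b the signals were 1605 and 1169.8, and for its copy psma2a 1044.7 and 863.6. Both copies thus had ratios above 1, at log2 ratios of 0.46 and 0.27, but psma2b alone passed the spread between probe sets. The gene psma1 read 1245.3 against 1026.7, psma6a 1554.9 against 1370, and psma8 1764.3 against 1620.7. The differences of these last genes, at log2 ratios of 0.28, 0.18 and 0.12, were smaller than the spread between probe sets. The exception to the direction was psma4, at 1183.3 against 1227.6, a log2 ratio of -0.05. The signals of psma6l, 9.7 and 14.9, were both below the floor.

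The beta rings hold the proteolytic sites, which belong in mammals to the products of psmb5, psmb6 and psmb7. The trypsin-like subunit gene psmb7 read 2704.7 against 2017.8, 1.34-fold higher, and the caspase-like subunit gene psmb6 read 2013.9 against 1730.4, 1.16-fold higher. The chymotrypsin-like subunit gene psmb5 read 479.4 against 517.1, a log2 ratio of -0.11. Of the 3 catalytic genes psmb7 alone differed by more than the spread between probe sets, so no common direction could be read. Both psmb6 and psmb7 were in the brightest bin of signal, where the median over all genes was 0.20. With that median subtracted, their log2 ratios were 0.02 for psmb6 and 0.22 for psmb7. Of the non-catalytic beta genes, psmb2 read 2144.7 against 1561.1, psmb4 2397.1 against 1818.3 and psmb3 2504.4 against 2022.7. These 3 genes had log2 ratios of 0.46, 0.40 and 0.31, the last within the spread between probe sets. The gene psmb1 was nearly equal at 2443.9 against 2399.2.

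A second set of beta genes encodes subunits that replace the standard ones in the immunoproteasome of mammals. Of these psmb10 read 110.1 against 129.8, a log2 ratio of -0.24. The genes psmb8a and psmb9a lay far below the floor, with signals of 3.1 and 4.5 on the C1q-like morpholino array and 1.6 and 11 on the control array. Their relatives psmb12 (25.1 against 8.7) and psmb13a (3 against 1.1) were also below it on both arrays. Of this second set and its relatives psmb10 alone was thus measured.

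**Figure D1:**
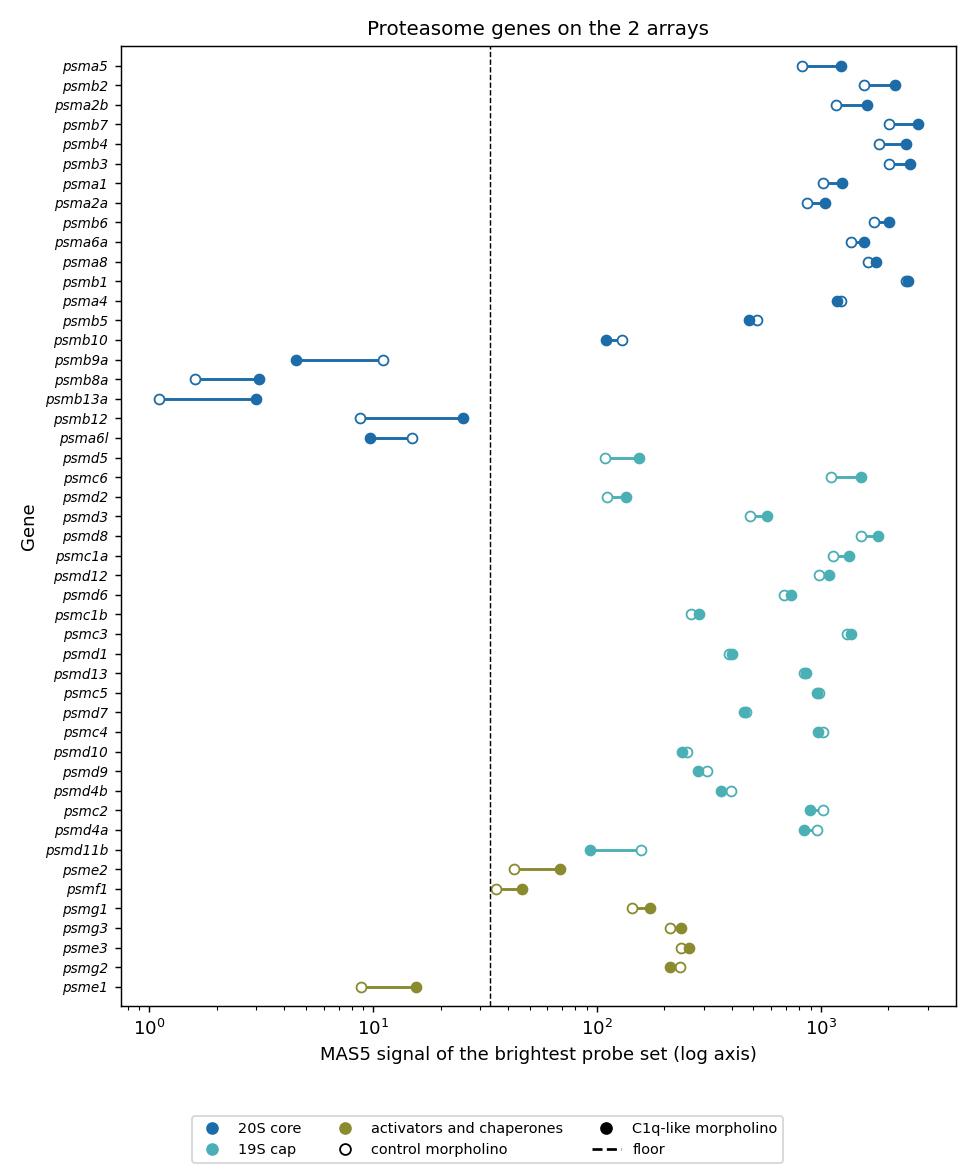
Signals of the 20S core, 19S cap, activator and chaperone genes on the control (open) and C1q-like morpholino (filled) array, 1 row per gene on a log axis, with the floor of 33.3 dashed. Each row is to be read as a pair, since signals of different probe sets are not comparable. Filled points lie to the right in 12 of the 15 measured core rows, while cap rows point both ways.

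In the cap, a ring of ATPases unfolds the substrate. All 7 measured psmc genes were within 1.36-fold of equality, with 4 above and 3 below it. The highest was psmc6, at 1508.5 against 1109.6, a log2 ratio of 0.44, followed by psmc1a at 1337.2 against 1136.2 and psmc1b at 284.4 against 262.6. The lowest was psmc2, at 896.5 against 1022.3, a log2 ratio of -0.19. Next lowest were psmc4, at 972.6 against 1020.1, and psmc5, at 958.5 against 979.4. The gene psmc3 had a log2 ratio of 0.07. Of the ATPase genes only psmc6 differed by more than the spread between probe sets.

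The 14 psmd genes encode the remaining cap subunits and helpers of its assembly, and 8 had ratios above and 6 below 1. The gene psmd11b, for a lid subunit, read 92.7 against 157.3 and was 1.70-fold lower, the lowest of all core and cap genes. The highest was psmd5, for a factor known in mammals to assist ATPase ring assembly, at 154.6 against 108.3, 1.43-fold higher. The 2 other assembly factor genes lay slightly below equality, psmd9 at 281.6 against 309.6 and psmd10 at 238.9 against 252. Assembly factors of the cap thus did not move as a group. The ubiquitin receptor copies psmd4a and psmd4b were alike, with log2 ratios of -0.19 and -0.16 from signals of 842.7 against 962.2 and 357.1 against 398.6. The large scaffold genes psmd1 and psmd2 read 402.8 against 387.8 and 135.3 against 110.8. A second probe set of psmd1 had the opposite sign, at 330.8 against 336, so psmd1 had no direction. Among lid genes, psmd3 read 576.1 against 483.5 and psmd8 1793.8 against 1514.4, both under 1.2-fold higher. By their brightest probe sets, psmd6, psmd7, psmd12 and psmd13 had log2 ratios between -0.04 and 0.15. A dimmer probe set of psmd12 read 184.4 against 132.6, a log2 ratio of 0.48. The deubiquitinase gene of the lid, psmd14, was not analysed here.

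Regulators and core assembly factors were mostly higher by small amounts, with 5 of 6 measured above 1, where 50.9% of all measured genes were. The median log2 ratio was 0.22. The activator gene psme2, whose partner psme1 was below the floor at 15.6 and 8.8, read 68.4 against 42.7, a log2 ratio of 0.68. The nuclear activator gene psme3 read 258.2 against 237.8. The inhibitor gene psmf1 read 46.3 against 35.5, close to the floor, and its second probe set read 47.8 against 27.5. The core assembly chaperone genes psmg1 (172.5 against 143.2) and psmg3 (236.1 against 210.8) were slightly higher and psmg2 (211 against 234.9) slightly lower. Of these genes psme2 and psmf1 passed the spread between probe sets.

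Of the 3 measured E1 genes 2 were lower, where 48.7% of all measured genes were below 1. Among the 3 only uba1 is for an E1 of ubiquitin itself. The gene uba1, for the principal ubiquitin E1, read 386.2 against 519.7 and was 1.35-fold lower. The gene uba2, for a subunit of the E1 of the ubiquitin-like modifier SUMO, read 240 against 391.3 and was 1.63-fold lower. By contrast uba3, for the catalytic subunit of the Nedd8 E1, read 268.5 against 230.7, a log2 ratio of 0.22. The gene uba7 had signals of 3.4 and 4.9.

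Of 27 E2 genes 25 were measured, and 17 had ratios below 1 against 7 above and 1 equal, where 48.7% of all measured genes were below 1. Of the 25, 10 were lower by more than the spread between probe sets, as were 24.3% of all measured genes, and 2 were higher by more, as were 22.3%. Of these 2, ube2r2 reached the floor on the C1q-like morpholino array alone and could count only as higher. The gene ube2s, whose product in mammals extends chains for the anaphase-promoting complex, read 167.5 against 351.5, 2.10-fold lower. Its second measured probe set, which was dim, went the other way, at 50.7 against 29.5, a log2 ratio of 0.61. The control signal of that probe set was below the floor, so it could count only as higher and its ratio is a bound. The direction of ube2s therefore depended on the probe set, and the mean over both, the bound included, was -0.23.

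Genes for the E2 that builds chains used in signaling and repair were all on the lower side. This E2 joins a catalytic subunit, from ube2na or ube2nb, to an inactive variant, from ube2v1 or ube2v2. The gene ube2v2 read 241.1 against 417.6 and was 1.73-fold lower. The gene ube2v1 read 355.5 against 524.6, 1.48-fold lower. The catalytic genes were lower by less, with ube2nb at 196.5 against 264.1 and ube2na at 269.8 against 295.8. Of these 4 genes, ube2na alone lay within the spread between probe sets.

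Other families of E2 genes were divided. The genes ube2e2 and ube2e3 were lower, at 321.1 against 440.7 and 196.7 against 305.1, and a second probe set of ube2e3 gave a log2 ratio of -0.52 beside the -0.63 of the first. The genes ube2q1 and ube2q2 were lower from dim signals, at 57.5 against 76.2 and 54.8 against 90.9. The copies ube2l3a and ube2l3b were both lower, at log2 ratios of -0.26 and -0.53. In contrast, the widely used ube2d genes stayed near equality. Their log2 ratios were -0.19 for ube2d1a, -0.11 for ube2d1b, 0.07 for ube2d3, 0.17 for ube2d2l and 0.36 for ube2d2. All 5 lay within the spread between probe sets.

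The copies of ube2g1, which acts in mammals in degradation of proteins from the endoplasmic reticulum, had ratios on opposite sides of 1. For ube2g1a the signals were 189.9 and 268.1, a log2 ratio of -0.50, and for ube2g1b 265 and 212.1, a log2 ratio of 0.32. The value of ube2g1b did not reach the yardstick of 0.36, so a direction could be read for ube2g1a alone. The difference of ube2g1a minus ube2g1b, -0.82 on the log2 scale, was the largest in size among 7 pairs of copies. The other 6 pairs (psma2, psmc1, psmd4, ube2d1, ube2l3 and ube2n) had the same sign in both copies. The dimmer probe set of ube2g1b was below the floor on both arrays.

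The highest E2 gene was ube2t, for the E2 that in mammals modifies Fancd2 in repair of DNA crosslinks, at 289.6 against 186 and 1.56-fold higher. The gene ube2r2 read 46.6 against 32.6, at least 1.40-fold higher because the control signal lay just below the floor. Next came ube2d2, at 252.6 against 197.4. The remaining measured E2 genes (ube2a, ube2al, ube2g2, ube2h and ube2kb) had log2 ratios between -0.21 and 0.19. The genes ube2ql1 and ube2wb were below the floor on both arrays.

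The Usp genes were lower in 14 of 19 measured cases, where 48.7% of all measured genes were below 1. By more than the spread between probe sets 11 were lower, where 24.3% of all were, and 2 higher, where 22.3% of all were. Genes at the floor on 1 array alone could count in 1 direction only. Of the 15 Usp genes at or above the floor on both arrays, 9 were lower and 1 higher by more than this spread. The shares given are over all measured genes, a wider set than genes at the floor on both arrays. The gene usp33, whose product acts on endocytic receptors in mammals, read 68.7 against 135.7, 1.98-fold lower. The gene usp1, whose product reverses the modification of Fancd2 made with the ube2t product in mammals, read 123 against 216.8, 1.76-fold lower. The ratio of usp1 was thus below and that of ube2t above 1. The gene usp5, for the enzyme that recycles free ubiquitin chains, read 282.9 against 478.3, 1.69-fold lower.

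The genes usp7 and usp10, whose products act on p53 in mammals, were lower by similar amounts. For usp7 the signals were 126 and 213.6, 1.70-fold lower, and its dimmer probe set gave a log2 ratio of -0.57. That dimmer probe set read 33 against 49.4, with 33 just below the floor, so it could count only as lower. For usp10 they were 122.4 and 207.2, 1.69-fold lower, and its dimmer probe set gave -0.61. Both probe sets of both genes therefore pointed the same way, as did those of usp42 (-0.55 and -0.42). The 3 measured probe sets of usp37 did not, at -0.68, -0.31 and 0.35. The brightest read 38.2 against 47.5 and the one of opposite sign 42.5 against 27.4, all near the floor. The probe sets at -0.68 and 0.35 each had 1 signal below the floor, so each could count in 1 direction only.

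Of the other lower genes, usp19 read 46.2 against 73.7, usp44 74.5 against 115.7 and usp13 63.7 against 95.9, with log2 ratios between -0.67 and -0.59. The genes usp12a, usp25 and usp38 reached the floor on the control array alone, so they could be counted only as lower, and their ratios are bounds. The gene usp14, whose product binds the proteasome and trims chains there, read 278.7 against 301.6 and was nearly equal. Its log2 ratio of -0.11 was the nearest to 0 among the 14 lower Usp genes.

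On the higher side stood usp3 at 63.9 against 45.3 and usp16 at 46.2 against 19.8, at least 1.39-fold higher. Both encode proteases known in mammals to remove ubiquitin from histone H2A. The gene usp16 reached the floor on the C1q-like morpholino array alone, so it could be counted only as higher. The genes usp2a (78.2 against 66.2), usp8 (78.4 against 67.1) and usp36 (35.2 against 34.4) lay within the spread between probe sets. Below the floor on both arrays were usp11, usp20, usp21 and usp49. Of 15 Usp genes at or above the floor on both arrays 11 were lower, with a median log2 ratio of -0.59. Over all 4979 genes at the floor on both arrays the median was -0.01.

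**Figure D2:**
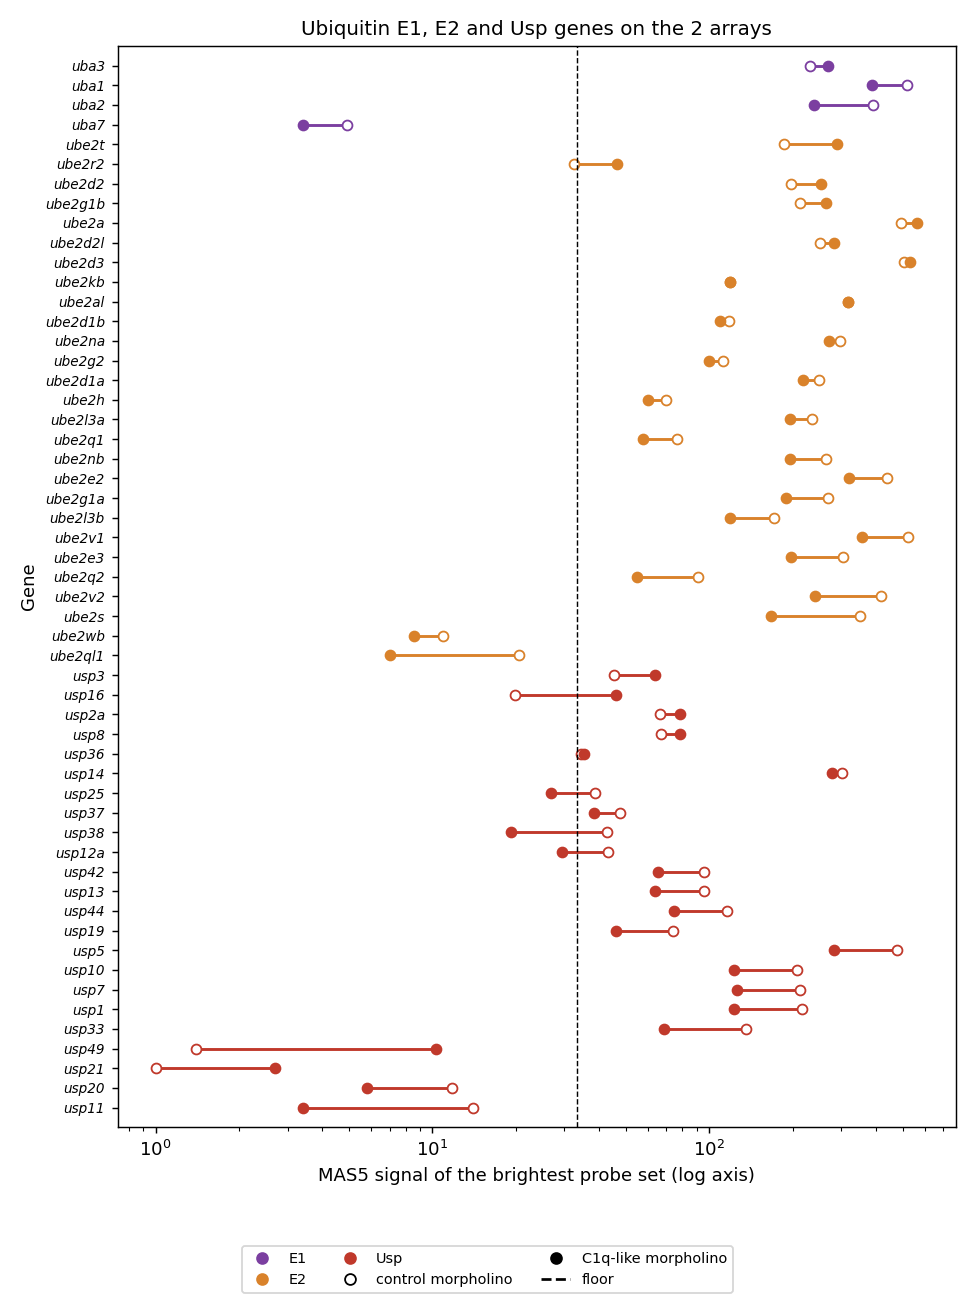
Signals of the E1, E2 and Usp genes on the control (open) and C1q-like morpholino (filled) array, 1 row per gene on a log axis, with the floor of 33.3 dashed. Filled points lie to the left in 17 of the 25 measured E2 rows and 14 of the 19 measured Usp rows, and rows wholly left of the dashed line were not measured.

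At a ratio of at least 1.5, chosen after the values were seen because few genes passed 2-fold, 14 of the 91 genes were lower, where 14.4% of all measured genes were. The 14 were 8 Usp genes, 4 E2 genes, uba2 and psmd11b. Higher at this size were psme2 and ube2t, 2 of 91, where 10.2% of all measured genes were. For the 91 genes as a whole the lower share was thus near that of all genes. None of the 15 core genes passed 1.5-fold either way.

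The classes differed in brightness, and on these arrays the log2 ratio varied with signal. In the brightest of 8 equal bins of mean signal the median over all genes was 0.20, and it was between -0.10 and -0.06 in the 4 bins beneath. Of 15 measured core genes 13 were in the brightest bin, with a median of 0.28, and of 21 cap genes 11, with a median of 0.07. No measured E2 or Usp gene was in it. With the median of its bin subtracted, a step added after the values were seen, the class median was 0.0750 for the core, -0.0502 for the cap, -0.10 for the E2 genes and -0.45 for the Usp genes. Of core genes 9 of 15 then lay above their bin, and of Usp genes 4 of 19.

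**Figure D3:**
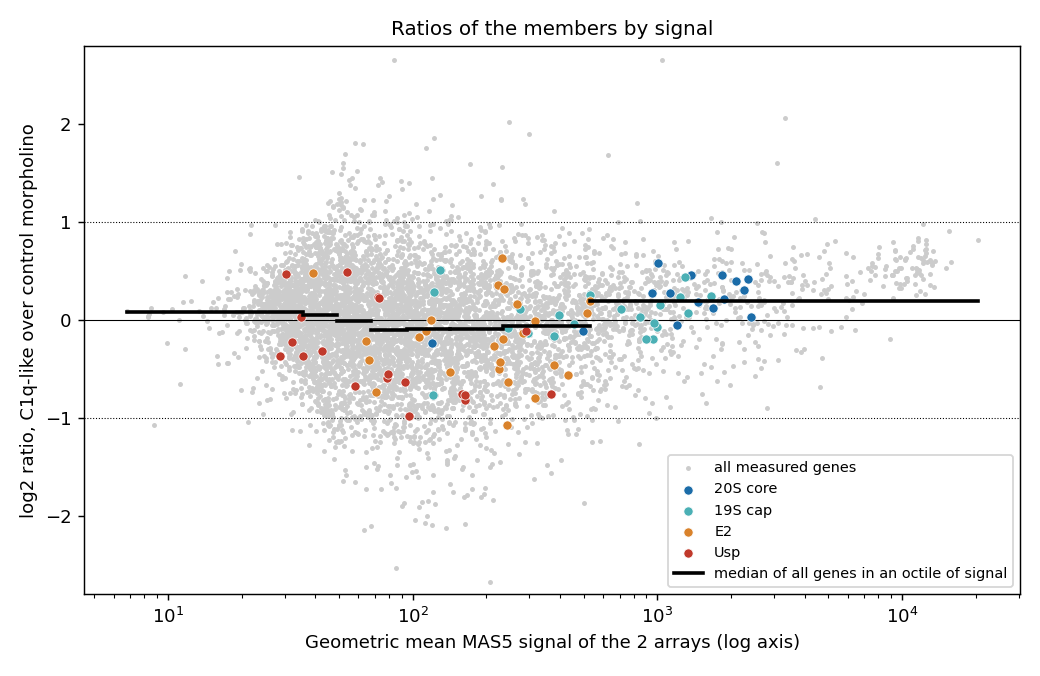
Log2 ratio of C1q-like over control morpholino against the geometric mean signal of both arrays (log axis) for all 5961 measured genes in grey and 4 classes in colour, with 2-fold dotted. Black bars give the median of all genes in each of 8 bins of signal. Core genes gather around the bar of the brightest bin at 0.20, whereas 15 of 19 Usp genes lie below their bars.

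The symbol pattern also took in 3 genes that are neither proteasome subunits nor deubiquitinases. The gene psmc3ip encodes a meiotic recombination factor in mammals and read 40.3 against 29.1, psme3ip1 had probe sets of opposite sign (159.3 against 184.8 and 106.4 against 95.4), and usp6nl, a gene for a GTPase-activating protein, was below the floor. They are in the counts over all 105 genes and in no class.

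Further genes of the pathway were read from 9 lists, in which 127 of 140 different genes found were measured, of which 9 were lower by 2-fold or more, where 4.09% of all measured genes were, and none was higher by as much, where 1.69% of all were. The 3 ubiquitin and fusion genes found were bright and higher. The polyubiquitin gene ubb read 7901 against 5042.7, 1.57-fold higher. The fusion genes rps27a and faua, for a ribosomal protein joined to ubiquitin and to a ubiquitin-like protein, were higher by log2 ratios of 0.71 and 0.69. All 3 belonged to the brightest bin of signal. The COP9 signalosome, which removes Nedd8 from cullins, had 5 of 7 genes above 1, where 50.9% of all measured genes were. Its median was 0.18. The highest were gps1 at 345.5 against 218.3 and cops5 at 0.23, and the lowest cops4 at -0.17 and cops8 at -0.13. Of the 7, gps1 alone differed by more than the spread between probe sets.

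Of the cullin ligases, 10 of 21 measured genes were above 1, near the 50.9% of all measured genes. The median log2 ratio was -0.12. The scaffold gene cul3a read 41.9 against 115.6 and was 2.76-fold lower, and cul1a read 86.2 against 187.5 and was 2.18-fold lower. The highest were keap1a, a substrate adaptor gene, at 0.61 and nedd8 at 652.3 against 436.3, a log2 ratio of 0.58. The log2 ratios of the other scaffold genes were -0.37 for cul1b, -0.12 for cul5a (a bound), 0.03 for cul4b and 0.23 for cul5b. Of 33 measured HECT and RING ligase genes 17 were below 1, near the 48.7% of all measured genes, with a median of -0.14. At least 2-fold lower were 5 of them, where 4.09% of all were. Among these were huwe1 at 65.4 against 155.4 and rnf40, whose product pairs with that of rnf20 to modify histone H2B, at 64.4 against 147.1. The highest were znrf2a, at least 1.91-fold higher, and mib1, a ligase gene of Notch signaling, at 0.61.

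The anaphase-promoting complex, the ligase served by Ube2s, had 10 of 13 genes below 1, where 48.7% of all measured genes were. Its median was -0.35. By more than the spread between probe sets 4 were lower, where 24.3% of all were, and 2 higher, where 22.3% were. The lowest genes of the complex were anapc1 at -0.74 and cdc27 at -0.50, and the highest anapc10 at 0.51 and anapc4 at 0.50. Shuttle and receptor genes had 11 of 13 below 1, where 48.7% of all measured genes were, and a median of -0.27. By more than the spread 5 of the 13 were lower, where 24.3% of all were, and 1 higher, where 22.3% were. The lowest were faf1 at -0.92 and stub1 at -0.91, and the highest ufd1l at 0.64 and rad23b at 0.24. The list of deubiquitinases outside the Usp family had 10 of 15 genes above 1, where 50.9% of all measured genes were. Its median was 0.06, with log2 ratios from -0.97 to 0.24. This list also held eif3f and eif3ha, for subunits of a translation initiation factor, and cops5, which was counted in the COP9 signalosome list too. Of the 15 genes, 4 reached the floor on the C1q-like morpholino array alone and could count only as above 1. Another 1 reached it on the control array alone and could count only as below 1. The lowest of this list were atxn3 at -0.97 and otub1b at -0.61, and the highest uchl3 at 0.24 and cops5. Genes of SUMO and other ubiquitin-like modifiers had a median of -0.12 over 19, from pias2, for a SUMO ligase, at 2.20-fold lower and uba2 to atg3 at 0.81 and atg12 at 0.57. Of transcription factors linked to proteasome genes in mammals 4 were measured and all were below 1, as were 48.7% of all measured genes. Among the 4, nfe2l3 read 48.8 against 111.1 and nrf1, for nuclear respiratory factor 1 and not Nfe2l1, 97.6 against 155.3. The genes nfe2l2a (30.8 against 54.7) and nfya (23.4 against 40.8) reached the floor on the control array alone. These 2 could therefore count only as below 1.

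Tissue markers differed between the arrays too. Of 4 neuron markers found all were lower, with summed signals of 387.1 against 794.6, and of 5 epidermis markers 4 were higher, with sums of 25272.3 against 13549.9. The 4 yolk and endoderm markers found were higher (10876.1 against 6643.7), 3 of 5 erythroid markers were higher (23163 against 16274.7), and 3 of 4 skeletal muscle markers were higher (12083.7 against 11716). Leukocyte markers, which bear on the immunoproteasome genes, summed to 944.4 against 797.1 with 3 of 5 higher. Each marker found was measured on at least 1 array. At the floor on 1 array alone were elavl4 (control) and myod1, spi1b and gata6 (C1q-like morpholino), so each could count in 1 direction only. The sums are led by the brightest probe sets. In the erythroid sum these were hbae3 and hbbe3, higher by log2 ratios of 0.66 and 0.30, as was gata1a by 1.16. The genes slc4a1a and alas2 were lower, at -1.01 and -0.60. The part of these tissue differences in the proteasome and ubiquitin values was not tested.

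The order of the classes, from core through cap and E2 to Usp genes, was the same in each of the 12 settings shown. The reported setting is among the 12, and median centring and membership by updated symbol could not change the order. The core and cap medians also did not move with the floor, without probe sets that share probes, or for genes at the floor on both arrays. Those settings therefore say little of the order of core and cap. The 2 medians were close under quantile normalization, at 0.0917 for the core and 0.0496 for the cap. With lowess centring they were 0.0722 and 0.0235. The core median ranged from 0.0722 to 0.27 and the Usp median from -0.59 to -0.37. The lowest core values came from lowess centring and bin subtraction, which remove a trend with signal.

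**Figure D4:**
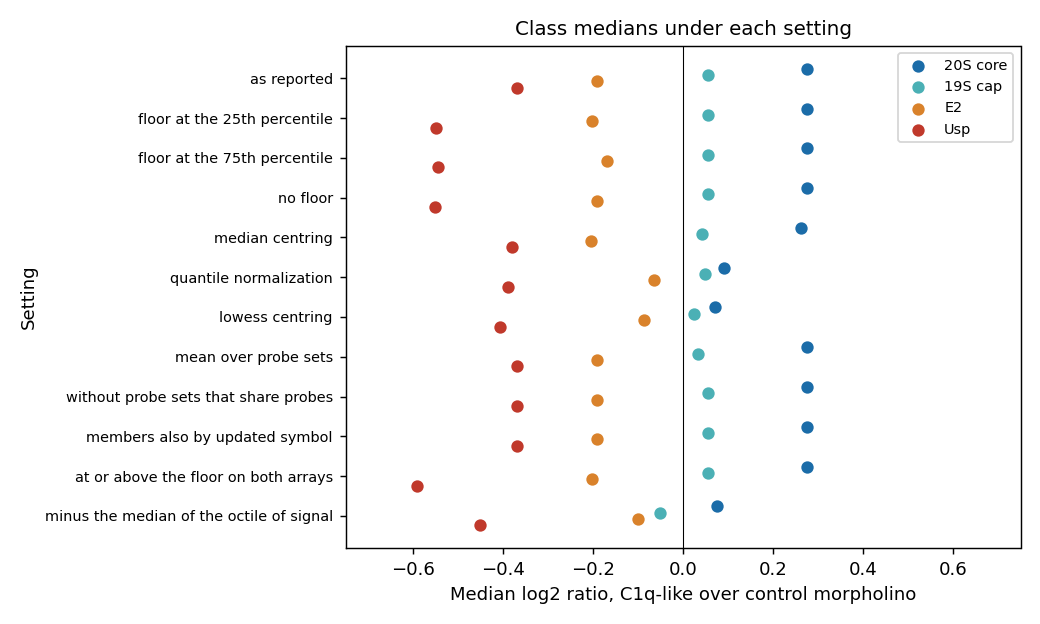
Median log2 ratio of the 20S core, 19S cap, E2 and Usp genes (horizontal axis) under the reported setting and 11 alternatives (vertical axis), 1 point per class. The core points lie above 0 and the Usp points below 0 in each row, with core values of 0.0722 after lowess centring and 0.0917 after quantile normalization.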

How the data were processed

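Biotin-labelled cRNA made from total RNA was hybridized to Affymetrix zebrafish arrays, per the labels. The authors deposited 1 linear intensity (signal) per probe set and array, made with MAS5 per the submitters' processing notes. The version of MAS5, its scaling target and detection calls are not given in the sources used here. MAS5 scales an array by 1 factor and leaves a trend with signal in place. The median signal was 34.7 with the C1q-like morpholino and 32 with its control. The number of arrays, 1 per group, limits the precision. Of 15502 probe sets 10795 named 1 gene in the platform annotation, 135 several and 4572 none. All 105 genes were found by Entrez number in the RefSeq table of assembly GRCz12tu, with no symbol altered.

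Each gene was read through its probe set of highest mean log2 signal. Log2 ratios were taken after raising signals to the floor, so a fold with 1 signal below it is a lower bound. No test, p-value or standard error was computed. Members and lists were chosen with earlier results of these data known. By rule, the text gives signals for genes past 2-fold, the 3 highest and 3 lowest of each class, psmb5, psmb6, psmb7, uba1 and genes whose probe sets differ in sign. It names the 2 highest and 2 lowest of each list, with signals or a log2 ratio. The rule also held psmd14, which was not analysed here, and other members were named freely. One gene that the rule also names is not reported here. A planned search of promoters for motifs was not made, since no promoter sequences were at hand. The steps were tested on simulated data. The software was Python 3.11.15, numpy 2.4.6, pandas 2.3.3, statsmodels 0.14.6 and matplotlib 3.10.9.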

Additional observations from a re-analysis of the deposited data

How the results depend on the processing

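The 10 other settings chosen at the outset were a floor at the 25th or 75th percentile or none, median centring, quantile normalization, centring on a lowess curve (span 0.3), the mean over probe sets, leaving out probe sets that share probes, membership also by updated symbol, and genes at the floor on both arrays. The count at least 2-fold higher, 0 as reported, was 2 with the lower floor (psmb12 and usp16) and 1 with none. The count at least 2-fold lower, 1 as reported, was 2 with the lower floor and with none (ube2s and usp38), and 0 under quantile normalization, lowess centring or the mean over probe sets. Under quantile normalization the core median of 0.27 was 0.0917 and the E2 median of -0.19 was -0.0654. With lowess centring they were 0.0722 and -0.0873. With bin medians subtracted the core median was 0.0750, and the cap median of 0.0548 changed sign to -0.0502. The Usp median of -0.37 was -0.55 with the lower floor, -0.54 with the higher, -0.55 with none and -0.59 for genes at the floor on both arrays. The reported -0.37 was the value of usp12a, whose ratio is a bound and was -0.55 without a floor. The updated symbols added 0 members. Of 886 single-gene values under the 10 settings 878 moved by less than the spread between probe sets, 8 moved by more, and the 1 gene past 2-fold did not change sign. Smaller ratios did change sign in some settings. Core genes above 1 were 12 of 15 as reported, 9 under quantile normalization and 10 with lowess centring. E2 genes above 1 were 7 of 25 as reported and 10 under each of these 2 settings. For cap genes the counts were 12, 12 and 11, and for Usp genes 5, 5 and 4. Many of these values could not move, so their number is no measure of robustness. This holds for the 91 by updated symbol and the 85 of genes at the floor on both arrays. Median centring shifted all 91 by the same 0.01. The 90 genes kept without probe sets that share probes were read through the same probe sets as before. The mean over probe sets could change only the 13 genes with several measured probe sets, and a new floor only genes with a signal below a floor. No paired analysis was possible because each group had 1 array, and for the same reason no replicate could be left out. Signals near the floor limit what can be said of dim Usp genes.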
